A study of Mus musculus with 4 samples.

Results

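mmu-miR-139-5p, mmu-miR-149-5p, mmu-miR-383-5p and mmu-miR-592-5p (written without the prefix mmu, for mouse, from here on) are mature miRNAs cut from hairpins that lie inside introns of protein-coding genes. They were chosen from the rows of the count files by name, as intronic miRNAs outside the let-7 family whose levels tended to be lower in both mutant libraries. They are 4 of the 1059 mature miRNAs in the files, each with 1 row. Because the comparison of mutants with controls was used to choose them, their values in that comparison are given as a description, without a test. In that description, their scaled levels in mutants were 32.3% to 59.1% of those in controls. Relative to miR-9-5p, the most abundant miRNA in these libraries, the genotypes overlapped for 3 of the 4, and 4.4% of the 273 other tested miRNAs, members included, were lower in both mutants on that ratio.

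The tissue was the rostral-most telencephalic primordium of mouse embryos at E11.5, and its small RNA was sequenced in 2 libraries of RxCre-DicerF/F embryos (Rx-Dicer mutants) and 2 libraries of control littermates. Dicer F/F, a floxed Dicer allele on both chromosomes, is carried by the mutants, and by the controls according to the protocol, although the genotype label of the controls reads WT. The Rx-Cre transgene, driven by regulatory sequences of Rax (Rx), deletes the floxed allele in the early forebrain. At this age the paper found recombination highest in rostral and ventral telencephalon and lower in the neocortex. From embryos stained at a later age than these, it describes the early loss of both Dicer and miR-9 as nearly complete in the rostral and ventral parts. How many cells of the dissected tissue kept Dicer was not measured in these libraries. Cre mice were kept on a CD1 background and floxed mice on C57BL/6, no drug was given, and how many embryos went into a library is not given in the sources used here, so the spread between the libraries of a genotype may be partly technical.

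An intronic miRNA is often transcribed as part of its host gene's transcript, which was not examined here for the members. The Drosha complex cuts the hairpin out in the nucleus, and Dicer then removes the loop in the cytoplasm, leaving a duplex of which 1 strand is loaded into Argonaute. The loaded miRNA finds messages mainly by its seed, bases 2 to 8, and lowers their stability and translation. Mature miRNAs are known to be long-lived, and after loss of Dicer they are diluted by cell division and decay.

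The mature sequences are shown because the seed, in capitals, is the main part by which a miRNA pairs with messages. Whether other miRNAs could share reads with the members was not examined. RefSeq (GRCm38.p6) matched 3 of the 4 names, and the sequences run 5′ to 3′.
miR-139-5p: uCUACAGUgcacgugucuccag
miR-149-5p: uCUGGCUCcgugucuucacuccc
miR-592-5p: aUUGUGUCaauaugcgaugaugu
The 3 seeds differ, with 1 to 4 of their 7 bases alike at the same position in any pair. Among the 895 miRNAs of the files with a RefSeq sequence, 0 others had the seed of any of these. These 3 are thus no seed family, unlike let-7. Their GC contents were 54.5% for miR-139-5p, 60.9% for miR-149-5p and 34.8% for miR-592-5p, beside a median of 47.8% over 230 tested miRNAs with a sequence.

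The hairpins were placed on mm10 with GENCODE M21. Mir139 lies on chr7:101475376-101475443 (plus strand), in intron 2 of 30 of Pde2a, which encodes a phosphodiesterase that breaks down cAMP and cGMP. This intron is 29902 bases long, and the hairpin ends 5927 bases before the next exon. A further annotated gene, Gm45837, spans the same position on the same strand, also with an intron there. Mir149 lies on chr1:92850378-92850443 (plus strand), in intron 1 of 8 of Gpc1. The host encodes glypican-1, a heparan sulphate proteoglycan of the cell surface that binds growth factors. The intron has 21249 bases, and 2903 of them separate the hairpin from the next exon.

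Mir383 and Mir592 lie in far longer introns. Mir383 is at chr8:38252133-38252202 (minus strand) in intron 1 of 7 of Sgcz, the gene of ζ-sarcoglycan, a membrane protein of the dystrophin complex. That intron has 707667 bases, of which 299075 lie between the hairpin and the next exon. Mir592 is at chr6:27936655-27936750 (minus strand) in intron 3 of 10 of Grm8, which encodes a metabotropic glutamate receptor of presynaptic terminals. Its intron has 218685 bases, and the next exon starts 174157 bases after the hairpin. Each of the hosts Pde2a, Gpc1, Sgcz and Grm8 holds 1 annotated miRNA gene on its strand, so none of the 4 is part of a cluster within its host.

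**Figure D1:**
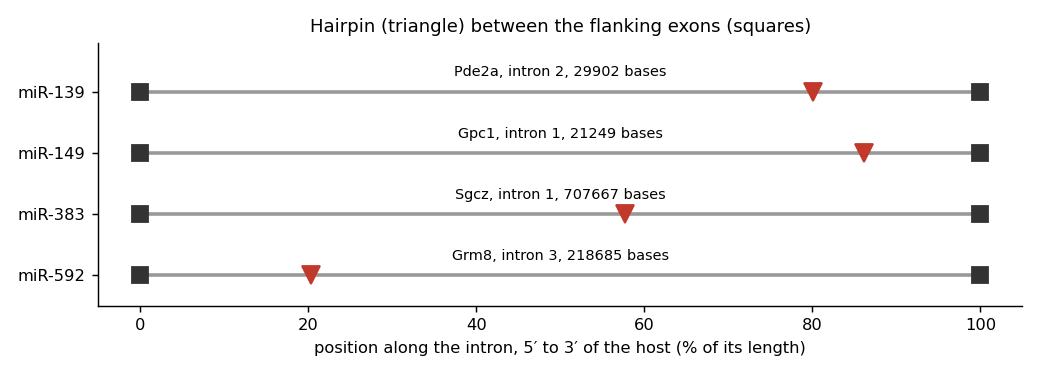
Position of each hairpin (triangle) along its host intron, from the upstream exon at 0% to the downstream exon at 100% (squares); introns are drawn at equal width and their lengths in bases are printed. miR-139 and miR-149 lie at 80.1% and 86.2% of their introns, miR-383 at 57.7% and miR-592 at 20.3%.

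The files hold the 5p arm of each of the 4 hairpins, and 0 rows for other arms of these precursors, so the ratio of the arms could not be given. Totals over mature miRNAs ran from 516517 to 651031 counts for mutants and from 1133553 to 1299067 for controls. The mutants thus had fewer miRNA counts, and these totals do not tell whether they were sequenced less deeply. Levels are counts per 1000000 of the library total (CPM), after edgeR's TMM scaling, and the test covered the 274 miRNAs that reached 10 counts in 2 or more libraries. All 4 members reached this minimum, miR-139-5p and miR-149-5p in 4 of 4 libraries, and miR-383-5p and miR-592-5p in 3 libraries each, where the control libraries alone sufficed. miR-9-5p, which marks neural progenitors, took 28.2% and 29.4% of the counts in mutants and 31.5% and 42.6% in controls, so control library 2 stood apart. Of the neural markers, 6 of 10 listed were in the files, with summed scaled CPM of 243133 to 260363 in mutants and 341501 to 526009 in controls, nearly all of it miR-9-5p. The 4 red-cell rows in the files, of which miR-486a-5p and miR-486b-5p hold identical counts, summed to 14112 to 15877 in mutants and 10825 to 11847 in controls, and 5 mesenchymal miRNAs to 11348 to 11917 in mutants and to 4443 and 11072 in control libraries 1 and 2. For other cell types, the endothelial miR-126a-5p was at 244 to 431 in mutants and 253 to 403 in controls, 5 epithelial rows summed to 235 to 808 and 201 to 427 with miR-200c-5p at 0, the liver's miR-122-5p was at 10.5 to 18.8 and 15.2 to 28.3, and 3 of 4 muscle rows (miR-1a-1-5p, miR-1a-2-5p and miR-206-5p) were at 0 in all libraries, with miR-133a-5p at 1.31 in 1 mutant library. In dissected tissue, fewer cells of a type and less RNA per cell cannot be told apart.

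In controls the members fell into 2 abundant and 2 scarce miRNAs. The choice compared mutants with controls within each miRNA, and did not use the order of the members among themselves. Each count is 1 whole mature miRNA, so no correction for length applies. miR-149-5p was the highest, with 2566 and 2712 scaled CPM in control libraries 1 and 2, which put it at rank 50 of the 274 tested miRNAs by mean. miR-139-5p followed at rank 65, with 1090 and 1035. The ranges of these 2 do not overlap, and the mean of miR-149-5p was 2.48 times that of miR-139-5p. miR-592-5p lay 20.4-fold under miR-139-5p at rank 191, with 53.2 and 51.0 scaled CPM. miR-383-5p was the lowest, at rank 212, with 26.6 and 51.0. In control library 2 both miRNAs had 47 counts, so miR-592-5p and miR-383-5p did not differ beyond the spread of the libraries. No test was run on this order, since 2 libraries per group are too few for an exact test to pass 0.05.

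For mmu-miR-139-5p, Rx-Dicer library 1 gave 420 counts and library 2 gave 261, while control library 1 gave 1312 and control library 2 gave 955. As scaled CPM these were 552 and 445 in mutants and 1090 and 1035 in controls. The groups did not overlap, and the higher mutant library was at 53.3% of the lower control library. Mutants averaged 499 ± 75.7 and controls 1063 ± 38.9 (SD over n = 2 libraries of each genotype). The log2 fold change was −1.09, with a standard error of 0.25. The mutant mean was 45.7% of control library 1 and 48.2% of control library 2, so the size of the difference did not rest on either control. miR-139-5p is known as a growth-restraining miRNA in many tumours.

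For mmu-miR-149-5p, the counts were 1065 and 1007 among mutants, against 3088 and 2501 among controls. Its scaled CPM were 1400 and 1717 in mutants and 2566 and 2712 in controls, again without overlap. Here the difference was the smallest of the 4, since mutants averaged 1558 ± 224 and controls 2639 ± 103 (SD over 2 libraries), and the log2 fold change was −0.76, with a standard error of 0.26. The 2 abundant members parted in the mutant libraries, where miR-139-5p was higher in library 1 and miR-149-5p in library 2. Counts of miR-149-5p were 2.54 and 3.86 times those of miR-139-5p in mutant libraries 1 and 2, against 2.35 and 2.62 times in the controls, a ratio that no scaling can change.

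mmu-miR-383-5p rested on few reads, 10 and 7 counts for the mutants and 32 and 47 for the controls. Its scaled CPM were 13.1 and 11.9 in mutants and 26.6 and 51.0 in controls. The groups did not overlap, but the controls differed from each other 1.92-fold, the widest gap between controls among the members. As CPM of unscaled totals, control library 1 had 24.6 (95% Wilson interval 17.4 to 34.8), and mutant libraries 1 and 2 had 15.4 (8.34 to 28.3) and 13.6 (6.56 to 28.0), so both mutant intervals overlapped that of control library 1. Mutants averaged 12.5 ± 0.855 and controls 38.8 ± 17.2 (SD over 2 libraries). The log2 fold change was −1.60, with a standard error of 0.49, and it was −1.07 without control library 2.

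mmu-miR-592-5p was likewise scarce, at 19 and 7 counts for the mutants and 64 and 47 for the controls. Scaled CPM were 24.97 and 11.9 in mutants and 53.2 and 51.0 in controls, and the groups did not overlap. The controls were alike and the mutants differed 2.09-fold, the reverse of miR-383-5p. On unscaled totals the 95% Wilson intervals were 18.7 to 45.6 and 6.56 to 28.0 CPM in mutant libraries 1 and 2, and 38.6 to 62.9 and 31.2 to 55.1 CPM in control libraries 1 and 2, so the interval of mutant library 1 overlapped those of the controls. Mutants averaged 18.5 ± 9.22 and controls 52.1 ± 1.58 (SD over 2 libraries). The log2 fold change was −1.46, with a standard error of 0.45, and it was −2.11 without mutant library 1 and −1.06 without mutant library 2. Wilson intervals cover counting error only, since the libraries carried no molecular identifiers to mark PCR copies, as far as the sources used here say.

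**Figure D2:**
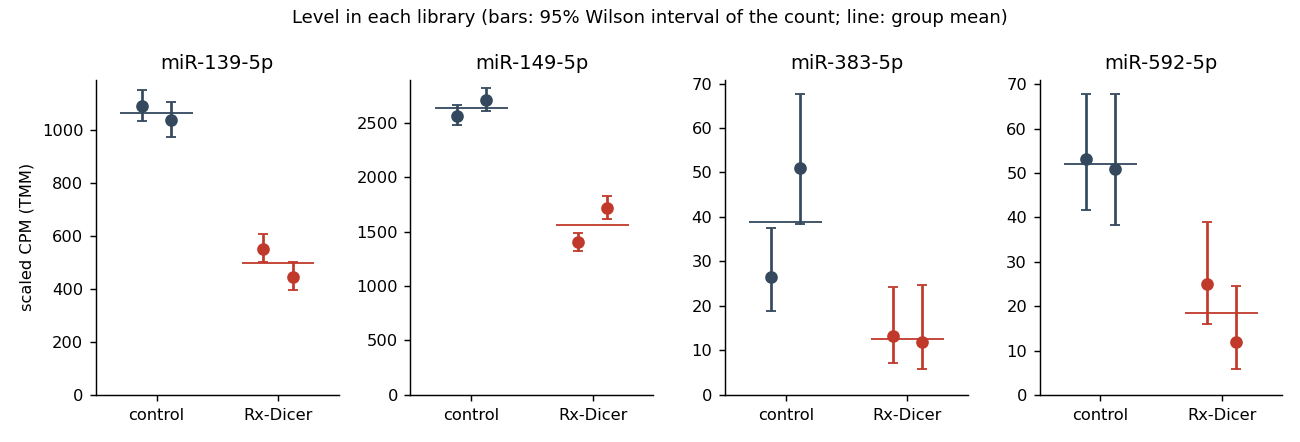
Scaled CPM (TMM) of each member in each library; points are libraries, vertical bars are 95% Wilson intervals of the counts on the same scale, and horizontal lines are group means (n = 2). Each panel has its own axis from 0. Every mutant point lies below every control point, with wide intervals for miR-383-5p and miR-592-5p.

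Summed over the 4 miRNAs, scaled CPM came to 1990 and 2186 for mutants, against 3736 and 3849 for controls, with miR-149-5p giving 68.7% to 78.5% of their counts in each library. All 4 were lower in both mutant than in both control libraries, the pattern they were picked for, which 24.5% of the 274 tested miRNAs showed (67 miRNAs), while 17.9% were higher in both. Their fold changes are relative to the other miRNAs, whose median log2 fold change was 0.04. The red-cell sum was higher in both mutants than in both controls. The mesenchymal sum was 11917 and 11348 in mutant libraries 1 and 2, beside 4443 and 11072 in control libraries 1 and 2. The neural sum, nearly all of it miR-9-5p, was lower in mutants like the members, at 58.0% of the controls by mean. The other neural markers were mixed. miR-124-5p was also lower in both mutants (195 and 205 against 359 and 297 in controls), as was the scarce miR-128-2-5p. miR-218-5p (1913 and 916 against 1189 and 1590) and miR-128-1-5p (61.8 and 81.8 against 80.6 and 57.5) overlapped between genotypes, and miR-153-5p was nearly absent. The part of these tissues in the result was not tested. Set against each control alone, the mutant means of the members were 34.7% to 60.7% of control library 1 and 24.6% to 57.5% of control library 2.

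A different picture came from relating each member to miR-9-5p in the same library, a ratio that does not depend on library totals. Per 1000 counts of miR-9-5p, miR-149-5p had 5.81 and 6.63 counts in the mutants and 7.55 and 5.17 in the controls. The mutants thus lay between the controls, and their mean was 97.7% of that of the controls. miR-139-5p had 2.29 and 1.72 in the mutants and 3.21 and 1.98 in the controls, which overlapped as well, with a mutant mean at 77.3%. miR-592-5p had 0.104 and 0.0461 against 0.157 and 0.0972, also with overlap. miR-383-5p did not overlap, with 0.0546 and 0.0461 in the mutants and 0.0783 and 0.0972 in the controls, but its 7 and 10 mutant counts carry wide counting errors. Over the 273 tested miRNAs other than miR-9-5p, 4.4% (12 miRNAs) were lower in both mutants on this ratio and 60.8% (166) were higher in both. miR-9-5p is itself cut by Dicer, and its scaled level was 240963 and 259155 in mutants and 339853 and 524056 in controls, so this ratio compares the members with another miRNA that was lower in both mutants. With miR-9-5p removed from the totals instead, each of the 4 was lower in both mutants, as were 15.8% of the 273 (43 miRNAs), while 36.3% (99) were higher in both. Since the members were picked for this pattern, nothing is read from their count. The mutant means were 54.8% for miR-139-5p, 68.9% for miR-149-5p, 37.5% for miR-383-5p and 41.5% for miR-592-5p of the control means.

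**Figure D3:**
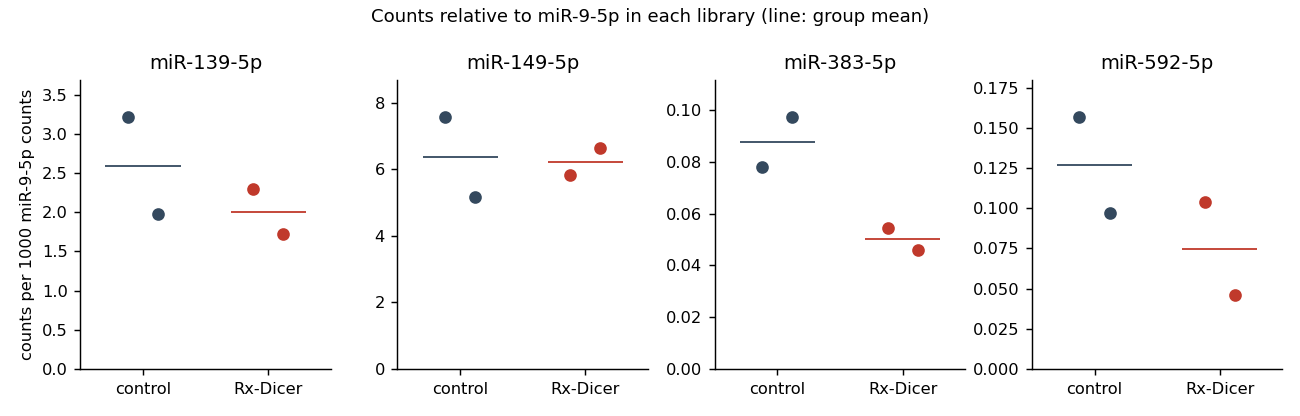
Counts of each member per 1000 counts of miR-9-5p in the same library; points are libraries and lines are group means (n = 2), each axis from 0. Mutant and control points overlap for miR-139-5p, miR-149-5p and miR-592-5p, and only miR-383-5p separates them, at 0.0461 to 0.0546 against 0.0783 to 0.0972.

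The members were then set beside the other intronic miRNAs. By GENCODE M21, 102 of the 274 tested miRNAs had their hairpins inside introns of protein-coding genes on the same strand, and 95 of them were neither members nor let-7 nor miR-98. Of these 95, 0 were called lower and 0 higher at an adjusted p under 0.05 by edgeR's quasi-likelihood test (4 and 0 without adjustment). DESeq2's Wald test also called 0 in either direction (1 and 0 without adjustment). Its default filter gave some low-count miRNAs no adjusted p, so these could not be called by it. Over all 274 miRNAs, edgeR called 2.55% lower and 0% higher, and 8.39% and 1.09% without adjustment. The median log2 fold change of the 95 was −0.01, beside 0.04 over all tested, and 26.3% of them were lower in both mutants, beside 24.5% of all. The 165 tested miRNAs that were neither members nor intronic nor let-7 had a median of 0.12, and 17% of them were lower in both. Of 43 tested miRNAs on a hand-written list of host genes, edgeR called 0 in either direction (3 lower and 0 higher without adjustment), and 30.2% were lower in both. For the 11 of these whose hosts have neural roles, edgeR also called 0 (2 lower and 0 higher without adjustment), with a median of −0.28 and 27.3% lower in both. The differences between these lists were not tested.

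Ranked with those 95 by log2 fold change, the members took places 1 (miR-383-5p), 3 (miR-592-5p), 4 (miR-139-5p) and 8 (miR-149-5p) of 99. Between and just after them came miRNAs that were not picked. miR-188-5p, from an intron of the endosomal chloride transporter gene Clcn5, was in place 2 with 9.20 and 5.12 scaled CPM in mutants and 19.9 and 22.8 in controls, a log2 fold change of −1.52 (adjusted p = 0.344, edgeR's quasi-likelihood test). miR-204-5p, from the ion channel gene Trpm3, had 88.1 and 81.8 in mutants and 135 and 155 in controls, a log2 fold change of −0.77 (adjusted p = 0.473, edgeR). The others of the lowest 5 were miR-23b-5p at −1.08, whose groups overlapped, miR-6960-5p at −0.80 and miR-3068-5p at −0.76. At the other end, the 5 highest were miR-7033-5p (1.05), miR-2137 (1.03), miR-6539 (0.88), miR-6538 (0.87) and miR-7083-5p (0.69), with adjusted p from 0.482 to 0.638 by edgeR.

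**Figure D4:**
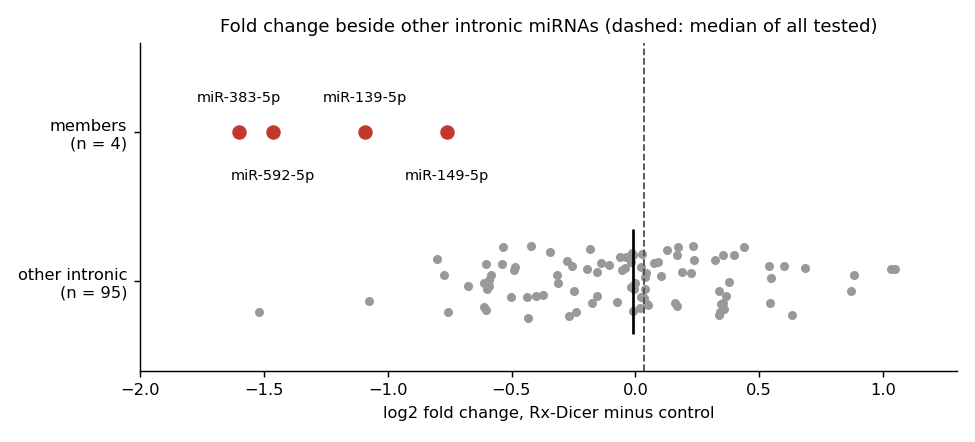
log2 fold change (Rx-Dicer minus control) of the 4 members and of the 95 other tested intronic miRNAs (grey points, spread vertically for visibility; solid line, their median of −0.01; dashed line, the median of all 274 tested miRNAs, 0.04). The members lie at the low end because they were chosen there, and miR-188-5p at −1.52 lies among them.

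Likeness of pattern was measured as the root mean square difference of log2 scaled CPM, centred on each miRNA's mean, over the 4 libraries. The lists that follow leave out fellow members. The miRNAs most like miR-139-5p were let-7f-5p (0.155), let-7a-5p (0.157) and let-7g-5p (0.158), against a median of 0.640 over all others. For miR-149-5p they were 3 other intronic miRNAs. These were miR-488-5p (0.0898), in the gene of the neuronal migration protein astrotactin (Astn1), miR-301b-5p (0.125) and miR-504-5p (0.136), which lies in Fgf13. miR-504-5p had 287 and 278 scaled CPM in mutants and 460 and 443 in controls. miR-383-5p was most like miR-150-5p (0.280), let-7j (0.319) and miR-99a-5p (0.342). The nearest to miR-592-5p were miR-188-5p (0.123), miR-3078-5p (0.172) and let-7c-5p (0.403), while the member miR-139-5p was at 0.345 from it. Among themselves the members were 0.276 (miR-139-5p and miR-149-5p) to 0.618 (miR-149-5p and miR-592-5p) apart, so each had nearer neighbours outside the set than within it. With 4 libraries this measure is a description only.

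The seeds were also looked up in messages, as the exact complement of bases 2 to 8 on the sense strand of the longest annotated 3′ UTR of each of 21020 genes. For miR-139-5p the letters ACTGTAG occurred in 2312 of these UTRs (11%), GAGCCAG for miR-149-5p in 3098 (14.7%), and GACACAA for miR-592-5p in 1826 (8.69%). The genes named next were chosen after the design was set. Irs2, the insulin receptor substrate at the centre of the study, has a UTR of 2329 bases with 0 matches to any of the 3. Igf1r, the receptor of insulin-like growth factor 1, holds 2 matches to miR-139-5p in a long UTR of 7267 bases. The first, at chr7:68228997-68229003 on mm10 (plus strand), has an A directly after it, which many effective sites carry. A match to miR-139-5p followed by an A occurs in 3.72% of all UTRs, a share not adjusted for UTR length. The first Igf1r site is printed with the match in capitals.
Igf1r: atacctgttttaatcACTGTAGaaaa
Gpc1, the host of miR-149, holds 3 matches to miR-149-5p in its own UTR of 2215 bases, at chr1:92858763-92858769, chr1:92860434-92860440 and chr1:92860448-92860454 (plus strand). Of these, 0 have an A directly after them. At least 3 matches occur in 0.523% of all UTRs, a share not adjusted for UTR length.
Gpc1 (a): tatcaggtcagctgcGAGCCAGtgtc
Gpc1 (b): gtttatgggaggaggGAGCCAGgata
Gpc1 (c): ggagccaggataccaGAGCCAGccag
Dicer1 holds 1 match to miR-149-5p and 1 to miR-592-5p in 3851 bases, and Notch1 1 each to miR-139-5p and miR-149-5p in 1628 bases. Rock2 has 0 matches to any of the 3, and so have Pde2a, Grm8 and Sgcz. A match of these letters is not evidence of binding, and the messages themselves were not analysed here.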

How the data were processed

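Small RNA libraries were read from 1 end over 75 bases, and the authors used miRDeep2, mm10 and miRBase version 22 to quantify mature miRNAs. Its version and settings are not given in the sources used here. The deposited values are raw counts per pair of mature miRNA and precursor, 1211 rows per library. For each mature miRNA the precursor row with the highest total was kept. The 274 miRNAs that reached 10 counts in 2 or more libraries were fitted with edgeR 4.0.16 (R 4.3.3, quasi-likelihood test, TMM scaling, genotype as the only factor, Benjamini-Hochberg adjustment, threshold 0.05), and DESeq2 1.42.0 was an alternative. Standard errors of fold changes come from the F statistics. In simulated data, edgeR recovered 72.5% of miRNAs set 4-fold lower in mutants, and 4.29% of its calls were false. Smaller decreases were not simulated, so lists with 0 calls do not show that such decreases were absent. Groups and replicate numbers come from the library titles. Counts of the libraries of a genotype differed beyond counting noise, so none was treated as a copy of another, which does not show that they came from separate embryos.

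Hairpins were placed by GENCODE M21 (GRCm38, the build of mm10). A hairpin was intronic where it lay inside a protein-coding gene on its strand and touched no exon of a protein-coding transcript spanning it. Of the 43 tested miRNAs of a hand-written list of hosts, 41 were intronic by this rule. The members and lists were chosen with earlier results of these data known. The named miRNAs are the members, the lowest 5 and highest 5 of the other intronic miRNAs, the 3 non-members most alike to each member, and the markers. Further miRNAs of the host Clcn5 were named after their values were seen. The genes looked up in 3′ UTRs and the miR-9-5p alternatives were chosen after seeing the data. Sequences are from RefSeq and GENCODE.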

Additional observations from a re-analysis of the deposited data

How the results depend on the processing

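The log2 fold change of each member stayed negative in every setting run. Scaling moved it together with the median of all tested miRNAs, which was 0.04 with TMM, 0.44 with total counts only, 0.14 with upper-quartile scaling, −0.37 when libraries were scaled to the same sum of miR-144-5p, miR-451a and miR-486a-5p (red-cell scaling) and −0.14 with no count minimum. For miR-139-5p it was −0.69 with total counts only, −1.50 with red-cell scaling and −1.26 with no count minimum, and for miR-149-5p it was −0.35, −1.18 and −0.92 in the same order. Relative to that median, the ranges over all fits were −1.24 to −0.97 for miR-139-5p, −0.94 to −0.60 for miR-149-5p, −1.99 to −1.11 for miR-383-5p and −2.10 to −1.08 for miR-592-5p. In alternatives chosen after seeing the data, it was −0.37, −0.033, −0.80 and −0.76 (miR-139-5p, miR-149-5p, miR-383-5p and miR-592-5p) relative to miR-9-5p, and −0.87 and −0.54 for miR-139-5p and miR-149-5p with miR-9-5p left out of the totals. With each library left out in turn, it ranged from −1.26 to −0.94 for miR-139-5p, −0.91 to −0.62 for miR-149-5p, −1.97 to −1.07 for miR-383-5p and −2.11 to −1.06 for miR-592-5p. In those fits the lone library of a genotype is assumed to vary like the others. miR-383-5p and miR-592-5p have no value with a minimum of 100 counts.

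Levels in controls depend on the total. As CPM of total counts, the control means were 926, 2292 and 45.4 for miR-139-5p, miR-149-5p and miR-592-5p, and 1471, 3658 and 72.1 with miR-9-5p left out of the totals.

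Over all tested miRNAs, 7 were called lower and 0 higher in the comparison as reported. The number lower was 4 with DESeq2's size factors, 3 with upper-quartile scaling, 0 with total counts only (10 lower and 51 higher without adjustment), 11 with red-cell scaling, 11 by DESeq2's Wald test, 14 with no count minimum, and 0 to 6 with each library left out (1 and 6 without Rx-Dicer library 1 and 2, 0 without control library 1 or 2, where 18 and 28 were lower without adjustment). None was called higher in any fit. Of the other intronic miRNAs, 0 were called lower in all fits but the one without Rx-Dicer library 2, where 2 were (miR-200a-5p and miR-200b-5p), and their median moved from −0.01 to 0.39 with total counts and −0.43 with red-cell scaling. With the replicate number as a factor (replicate block), 0 miRNAs passed by edgeR (20 lower and 4 higher without adjustment), and the members' log2 fold changes were −1.10, −0.77, −1.53 and −1.51. Deviations of same-numbered libraries correlated at 0.08 across 274 miRNAs, and no label ties them together. For 21 other named miRNAs, 0 of 249 fold changes under alternatives changed direction. The 21 leave out the markers and the miRNAs named only under other observations. Of the 249, 214 kept their side of the threshold, 12 passed it in the alternative alone and 23 as reported alone. Without Rx-Dicer library 2, the markers miR-200a-5p and miR-200b-5p went from 0.63 and 0.37 to −2.59 and −3.35. The cause of these differences was not tested. Low counts limit miR-383-5p and miR-592-5p.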

Other observations

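miR-188-5p, which had the lowest log2 fold change of the 95 other intronic miRNAs tested (−1.52), shares its host Clcn5 with 3 further tested miRNAs, which did not share its values. miR-532-5p had 3078 and 3548 scaled CPM in the mutants and 4940 and 4028 in the controls, a log2 fold change of −0.44 (standard error 0.26). miR-362-5p was at −0.01 (standard error 0.24) and miR-501-5p at 0.09 (standard error 0.30), with levels that overlapped between genotypes. miR-188-5p was by far the scarcest of the 4, with 5.12 to 22.8 scaled CPM. The differences among these 4 miRNAs were not tested, and miR-532-5p, miR-362-5p and miR-501-5p were chosen after their values were seen.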
